A study of Rattus norvegicus with 8 samples.

Results

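The genes described here encode the major histocompatibility complex (MHC) of the rat, which is called RT1, and the proteins that cut, carry and load the peptides it displays. They were the genes whose single symbol in the annotation of the array starts with RT1-, together with B2m, Cd74, Tap1, Tap2, Tapbp, Psmb8, Psmb9, Psmb10, Psme1, Psme2, Ciita and Nlrc5. In all, 50 of 28826 probe sets met this rule, and they stood for 46 of the 14497 genes that had a probe set with 1 symbol. Among them were 28 probe sets of 26 class I heavy chains, 9 probe sets of 9 class II chains and 10 probe sets of 8 processing genes. B2m, Cd74 and Ciita had 1 probe set each, and no probe set carried Nlrc5 as its single symbol. No filter on low values was used, so all 50 entered the test. Another 4 probe sets carried several RT1 symbols and dropped out. One of these held RT1-A1, RT1-A2 and RT1-A3, and no single-symbol probe set stood for an RT1-A gene.

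The study treated adult male Wistar rats, an outbred stock, and their RT1 alleles were not typed here. Every rat, controls included, had its L5 spinal nerve transected, and there was no uninjured group. The histone deacetylase inhibitor (HDACI) MS-275 was infused intrathecally from an osmotic pump at 30 nmol per day in 4 rats, and vehicle (30% DMSO in saline) in 4 rats, with pumps placed before the injury. The L5 dorsal root ganglion (DRG) on the injured side was taken at day 14, and the RNA of each sample went on 1 array of the type Affymetrix Rat Gene 1.0 ST. The methods call the samples biological replicates, and the errors measure the spread between them. All values are deposited log2 values after RMA, a method that corrects background, equalizes the distributions of the arrays and summarizes probes into probe sets. A difference of 1 on this scale is a doubling, and the median of all probe sets lay between 8.13 and 8.16 on the 8 arrays.

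MHC class I molecules consist of a heavy chain and the light chain B2m, are made by nearly all nucleated cells, and show peptides from inside the cell to CD8 T cells and natural killer (NK) cells. The peptides are cut by proteasomes, in which Psmb8, Psmb9 and Psmb10 can replace the constitutive catalytic subunits, are pumped into the endoplasmic reticulum by Tap1 and Tap2, and are loaded with the help of tapasin (Tapbp). Class II molecules are alpha and beta chain pairs of antigen-presenting cells such as macrophages, dendritic cells and B cells. They are guarded by the invariant chain Cd74, switched on by the transactivator Ciita, and show peptides taken up from outside to CD4 T cells. After peripheral nerve injury the DRG is known to take in immune cells and to raise MHC expression.

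The labelled tissue was visible on every array, since the mean of 8 sensory neuron markers lay between 10.95 and 11.37 on the log2 scale. Markers of skeletal muscle were also present, and 12 of 12 measured muscle genes were lower with HDACI at an unadjusted p of 0.05, with a median difference of -2.10. Their mean was 11.72 on vehicle replicate 1, 10.93 on vehicle replicate 2, 9.77 on vehicle replicate 4 and 7.68 on vehicle replicate 3, against 7.51 to 8.05 with HDACI. Fewer cells of a type and less RNA per cell cannot be told apart in whole ganglia, and this holds for every value below.

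No MHC or processing gene passed an adjusted p of 0.05 in limma, where p was adjusted by Benjamini-Hochberg over the whole array and came to 0.9998 for each of them. The count over all 28826 probe sets at that threshold was also 0 (0% of probe sets). At an unadjusted p of 0.05, 7 of the 50 probe sets (14%) passed, against 3.55% of all probe sets. RT1-CE10, RT1-CE16, Tap2 and Psmb9 were higher with HDACI (1.61% of all probe sets passed in this direction), and RT1-CE4, RT1-CE15 and RT1-Db1 were lower (1.93%). At an unadjusted p of 0.01, RT1-CE10 alone remained, against 0.555% of all probe sets. The groups did not overlap for 3 of the 50, RT1-CE10, RT1-CE4 and RT1-Db1, against 2.1% of all probe sets. The median difference of the 50 was 0.06 on the log2 scale, and 35 of them (70%) lay above 0. Over all probe sets the median was 0.005 and 53.3% lay above 0. The count of higher probe sets was 2 without HDACI replicate 2, without HDACI replicate 3 or without vehicle replicate 4, and 9 without HDACI replicate 4. The count of lower ones was 1 without HDACI replicate 2. Over all 28826 probe sets, 362 were higher and 421 lower without HDACI replicate 2. There 527 were higher without HDACI replicate 3, 674 without vehicle replicate 4 and 474 without HDACI replicate 4.

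**Figure D1:**
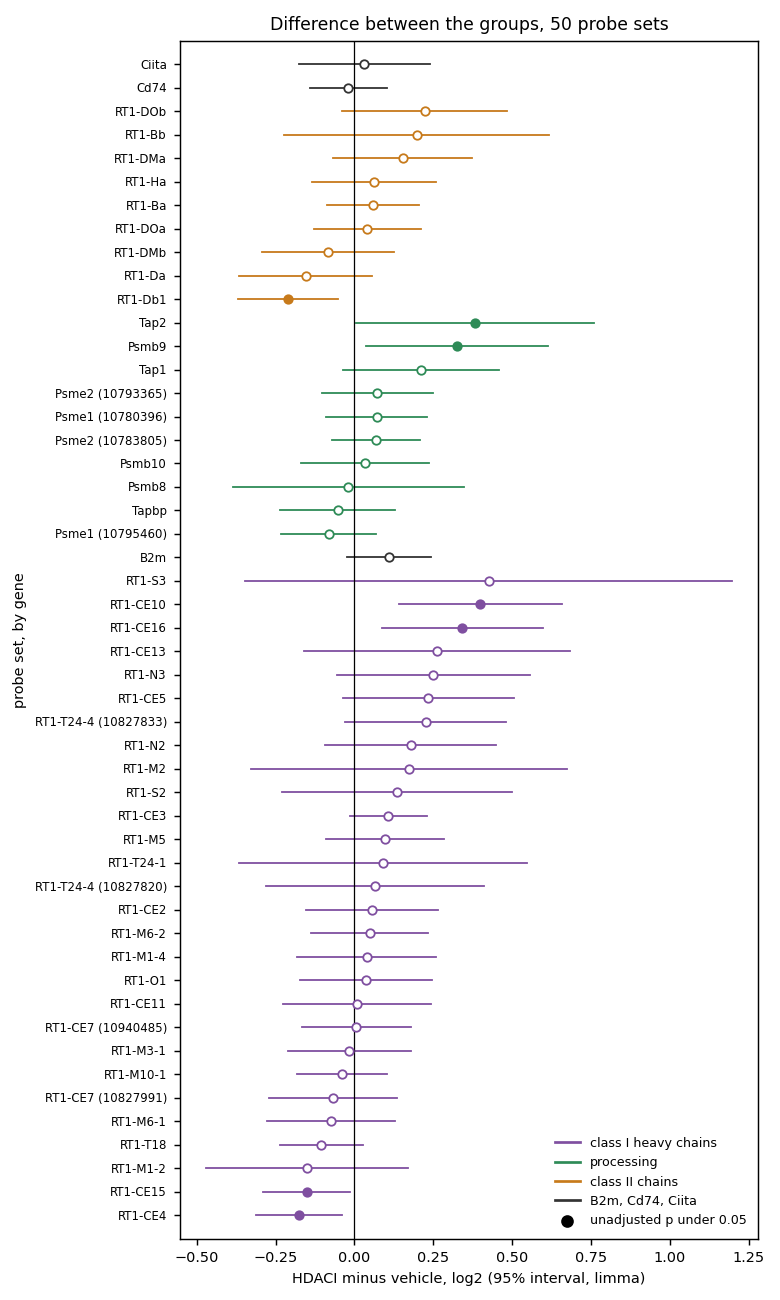
Difference between the groups (HDACI minus vehicle, log2) for all 50 probe sets, with the 95% interval of the limma fit on 4 arrays per group, and colours for class I, class II, processing and other genes. Filled points mark the 7 probe sets past an unadjusted p of 0.05, and the widest interval belongs to RT1-S3 (-0.35 to 1.20).

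Class I heavy chains gave the widest range of differences, but they also had the most probe sets, and a range tends to widen with their number. Among their 28 probe sets 20 were higher with HDACI, and the differences ran from -0.18 for RT1-CE4 to 0.43 for RT1-S3 around a median of 0.06. Past an unadjusted p of 0.05 stood 2 higher probe sets, RT1-CE10 and RT1-CE16, and 2 lower ones, RT1-CE4 and RT1-CE15. Over all probe sets 1.61% were higher and 1.93% lower past that threshold. All 4 genes lie in the C/E region of RT1 on chromosome 20, a cluster of class I genes that has grown by duplication.

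RT1-CE10 read 8.74, 8.69, 9.01 and 8.38 on HDACI replicates 1 to 4, and 8.32, 8.25, 8.34 and 8.33 on vehicle replicates 1 to 4. Every HDACI array lay above every vehicle array, with HDACI replicate 4 by a narrow margin, and the vehicle arrays lay close together. The difference was 0.40 ± 0.11 (SE; 95% interval 0.14 to 0.66, limma, unadjusted p = 0.00691), a 1.32-fold higher level. It was the single member of the 50 with HDACI wholly above vehicle, an arrangement found in 1.01% of all probe sets. Without 1 of the 8 arrays at a time its difference stayed between 0.30 and 0.51 and its unadjusted p between 0.000245 and 0.0197.

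RT1-CE16 read 8.79, 8.92, 8.91 and 8.49 with HDACI, and 8.56, 8.58, 8.36 and 8.24 with vehicle. HDACI replicate 4 fell among the vehicle arrays, and the other HDACI arrays lay above all of them. The difference was 0.34 ± 0.11 (95% interval 0.09 to 0.60, limma, unadjusted p = 0.0145). With 1 array left out at a time the unadjusted p ran from 0.00143 to 0.043.

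RT1-CE4 went the other way, with 9.55, 9.41, 9.52 and 9.58 with HDACI against 9.60, 9.80, 9.72 and 9.65 with vehicle. The groups did not overlap, although HDACI replicate 4 and vehicle replicate 1 nearly touched. The difference was -0.18 ± 0.06 (95% interval -0.31 to -0.04, limma, unadjusted p = 0.0173), and its unadjusted p was 0.053 without HDACI replicate 2 and 0.0523 without vehicle replicate 2. RT1-CE15 read 9.73, 9.78, 9.73 and 9.93 with HDACI, and 9.96, 9.84, 10.003 and 9.97 with vehicle. Its groups overlapped through HDACI replicate 4 and vehicle replicate 2. The difference was -0.15 ± 0.06 (95% interval -0.29 to -0.01, limma, unadjusted p = 0.0345), and its unadjusted p lay between 0.0641 and 0.0899 in 6 of the 8 fits that left out 1 array, all but those without HDACI replicate 4 or vehicle replicate 2.

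The stretches before the start sites of these 4 genes are shown because they are similar to one another while the genes differed in opposite directions. The sequences are RefSeq promoters of assembly GRCr8, read 5′ to 3′ on the gene's own strand, here the minus strand of chromosome 20. Capitals mark matches to the kappa B consensus, to GTTTCACTT, a stretch of the interferon-responsive part of class I promoters, and to CCAAT or its reverse complement ATTGG.
RT1-CE10, chr20:3385041-3385183: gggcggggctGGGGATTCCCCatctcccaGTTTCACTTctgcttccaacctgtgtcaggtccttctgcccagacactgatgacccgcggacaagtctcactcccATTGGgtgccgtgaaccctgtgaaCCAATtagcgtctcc
RT1-CE16, chr20:3265444-3265584: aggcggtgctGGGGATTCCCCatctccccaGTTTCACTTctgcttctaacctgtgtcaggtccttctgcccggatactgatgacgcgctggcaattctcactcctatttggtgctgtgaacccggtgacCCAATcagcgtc
RT1-CE4, chr20:3509217-3509360: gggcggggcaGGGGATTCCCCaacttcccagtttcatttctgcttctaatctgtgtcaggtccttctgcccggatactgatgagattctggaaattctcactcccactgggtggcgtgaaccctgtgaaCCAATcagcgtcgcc
RT1-CE15, chr20:3283795-3283952: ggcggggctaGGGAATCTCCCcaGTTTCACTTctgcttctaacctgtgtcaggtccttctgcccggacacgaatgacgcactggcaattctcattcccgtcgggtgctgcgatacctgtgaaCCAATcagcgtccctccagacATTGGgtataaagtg

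Between these 4 stretches 83.8% to 89.3% of aligned bases were identical. Gaps, which these shares leave out, took 27 to 31 bases in pairs with RT1-CE15 and 3 to 4 in the other pairs. Each held the kappa B consensus and CCAAT, and GTTTCACTT stood in the stretches of RT1-CE10, RT1-CE16 and RT1-CE15 but not in that of RT1-CE4. Transcript and probe sequences were not compared. Probe sets of related genes can respond to each other's transcripts, so the 4 may not be fully separate measurements. Motifs were searched on both strands of the window from 250 bases before to 50 bases after the start, and the kappa B matches on opposite strands overlap because the motif is nearly a palindrome. A match is a description of the letters, not a binding site. Across the 23 class I genes with a RefSeq promoter, 15 windows held CCAAT (65.2%, against 37.5% of all 33469 RefSeq promoters), 7 held the kappa B consensus (30.4% against 4.18%) and 10 held GTTTCACTT (43.5% against 0.385%). GTTTCACTT was chosen after the class I sequences had been read. Since at least the 4 stretches shown are similar to one another, the 23 windows are not 23 independent cases, and the shares describe letters only.

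**Figure D2:**
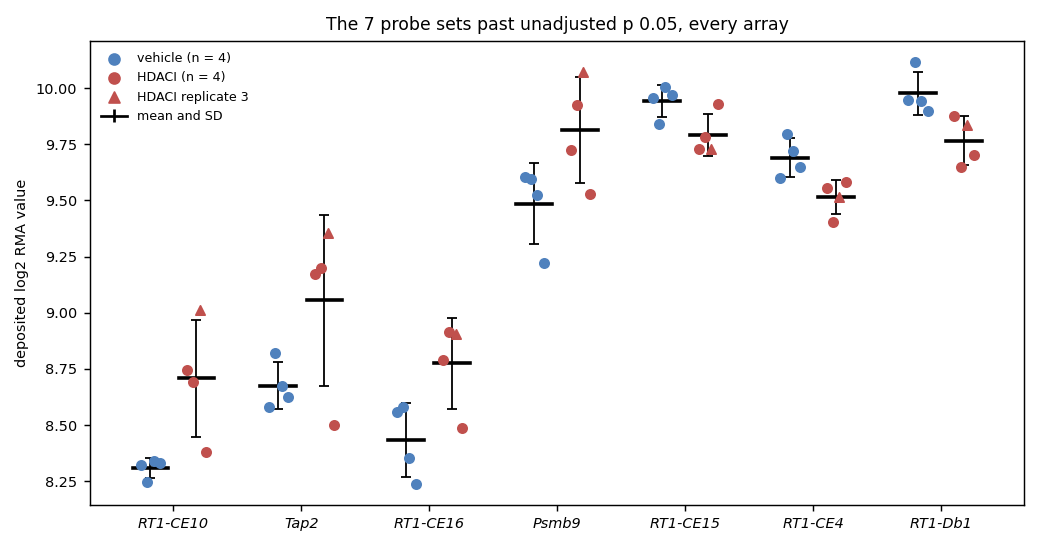
Deposited log2 values of the 7 probe sets past an unadjusted p of 0.05 on every array, vehicle in blue and HDACI in red (n = 4 each), with HDACI replicate 3 as a triangle and bars for the mean and SD. HDACI and vehicle do not overlap for RT1-CE10, RT1-CE4 and RT1-Db1, and 1 HDACI array, replicate 4, sits with vehicle or below it for RT1-CE16, Tap2 and Psmb9.

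RT1-S3 had the largest difference of all members and the largest error. It read 9.45, 9.80, 10.91 and 9.18 on HDACI replicates 1 to 4, against 9.51, 9.26, 9.79 and 9.08 with vehicle. HDACI replicate 3 stood 1.44 above the mean of the other HDACI arrays, which lay within or close to the vehicle range. The difference was 0.43 ± 0.34 (95% interval -0.35 to 1.20, limma, unadjusted p = 0.244), and 0.07 ± 0.19 without HDACI replicate 3.

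The groups overlapped for RT1-CE13, RT1-M2 and RT1-CE7 as well. RT1-CE13 read 9.80, 10.03, 10.64 and 9.69 with HDACI and 9.78, 9.61, 9.90 and 9.83 with vehicle, again with replicate 3 far above the others (difference 0.26 ± 0.19). RT1-M2, of the M region at the far end of the complex, was highest on HDACI replicate 3 (9.999) and vehicle replicate 2 (9.97) and between 9.01 and 9.40 on the other 6 arrays (difference 0.17 ± 0.22). RT1-CE7 had a pair of probe sets, with differences of -0.07 ± 0.09 and 0.01 ± 0.08. RT1-T24-4 also had a pair, with differences of 0.07 ± 0.15 and 0.23 ± 0.11. The 4 probe sets with several symbols, which are not counted among the members, differed by 0.09 for RT1-A1 to RT1-A3, 0.29 for RT1-CE1 with RT1-CE12 (limma, unadjusted p = 0.0169), 0.13 for RT1-CE13 with RT1-CE14 and 0.24 for RT1-CE1, RT1-CE7 and RT1-CE12.

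B2m, the light chain shared by all class I molecules, lies outside RT1 on chromosome 3. It read 13.52, 13.45, 13.58 and 13.61 with HDACI, and 13.52, 13.39, 13.33 and 13.48 with vehicle. The groups overlapped, with HDACI replicates 1 and 2 within the vehicle range, and the difference was 0.11 ± 0.06 (95% interval -0.03 to 0.24, limma, unadjusted p = 0.0989).

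Among the processing genes, 2 of 10 probe sets passed an unadjusted p of 0.05, both higher with HDACI, and the median difference was 0.07. Over all probe sets 1.61% passed in this direction, and the median difference was 0.005. Tap2, a partner of the peptide pump that in rats exists in allelic forms with different peptide preferences, read 9.17, 9.20, 9.36 and 8.50 with HDACI, and 8.58, 8.82, 8.67 and 8.63 with vehicle. HDACI replicates 1 to 3 lay above all vehicle arrays, and HDACI replicate 4 was the lowest of the 8. The difference was 0.38 ± 0.17 (95% interval 0.005 to 0.76, limma, unadjusted p = 0.0476), which is 1.30-fold. The unadjusted p was 6.54e-05 without HDACI replicate 4 and 0.0489 without vehicle replicate 2, and lay between 0.0803 and 0.128 without any of the other 6 arrays.

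Psmb9, an inducible catalytic subunit of the proteasome, read 9.72, 9.92, 10.07 and 9.53 with HDACI and 9.60, 9.59, 9.53 and 9.22 with vehicle. HDACI replicate 4 lay among the vehicle arrays, and the lowest value was that of vehicle replicate 4. The difference was 0.33 ± 0.13 (95% interval 0.04 to 0.62, limma, unadjusted p = 0.0313), and the unadjusted p was 0.0781 without HDACI replicate 2, 0.0845 without HDACI replicate 3 and 0.0842 without vehicle replicate 4. Without HDACI replicate 2, HDACI replicate 3 or vehicle replicate 4 no processing gene was higher past that threshold.

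Tap1, the other part of the pump, read 9.19, 9.31, 9.56 and 9.11 with HDACI, and 9.14, 8.99, 9.27 and 8.92 with vehicle. The groups overlapped, and its difference of 0.21 ± 0.11 (95% interval -0.04 to 0.46) had an unadjusted p of 0.086 in limma. Tap1 and Psmb9 are neighbours that are transcribed away from each other, with 457 bases between their RefSeq starts. The stretches of Tap2 and Tap1 are shown for the interferon response core AAANNGAAA, read on either strand, in capitals together with a kappa B match in Tap1. Both are RefSeq sequences of GRCr8 on the minus strand of chromosome 20.
Tap2, chr20:4652318-4652346: cagcgaagtgAAAGCGAAAgcccgggacc
Tap1, chr20:4668579-4668674: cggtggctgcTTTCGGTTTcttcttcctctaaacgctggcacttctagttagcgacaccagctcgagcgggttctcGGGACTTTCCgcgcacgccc

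The core AAANNGAAA stood in the windows of 6 of the 8 processing genes (75%) and in 11.8% of all RefSeq promoters. Class I windows held it in 5 of 23 cases (21.7%), where it overlapped GTTTCACTT in RT1-M3-1 and RT1-N3. The window of Psmb9, which was higher with HDACI at an unadjusted p of 0.05, had no match to it. That window ends 250 bases before the start, and the match of Tap1 lies beyond it in the 457 bases between the Tap1 and Psmb9 starts.

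The other processing genes differed little. Psmb8, the catalytic subunit encoded beside Tap1 and Tap2, ranged from 8.04 to 8.62 with HDACI and from 7.94 to 8.62 with vehicle (difference -0.02 ± 0.16). Psmb10, the remaining inducible subunit, lies on chromosome 19 and differed by 0.03 ± 0.09. Tapbp, which holds class I molecules at the pump, read 9.21, 9.22, 9.52 and 9.12 with HDACI and 9.30 to 9.35 with vehicle, so that 3 HDACI arrays lay below and 1 above all vehicle arrays. Its difference was -0.05 ± 0.08, and -0.14 ± 0.05 without HDACI replicate 3 (limma, unadjusted p = 0.0224). Psme1 and Psme2, the subunits of an interferon-inducible proteasome activator on chromosome 15, had a pair of probe sets each. Those of Psme2 differed by 0.07 ± 0.06 and 0.07 ± 0.08. Those of Psme1 pointed in opposite directions, with 0.07 ± 0.07 and -0.08 ± 0.07.

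Class II genes did not share a direction. Of the 9 RT1 class II probe sets 6 were higher and 3 lower with HDACI, and the median difference was 0.06. RT1-Db1 alone passed an unadjusted p of 0.05, against 3.55% of all probe sets. RT1-Db1, a beta chain of the RT1-D molecule, read 9.88, 9.65, 9.84 and 9.70 with HDACI, and 9.95, 10.12, 9.94 and 9.90 with vehicle. All HDACI arrays lay below all vehicle arrays, as did those of RT1-CE4 and as found in 1.09% of all probe sets. The difference was -0.21 ± 0.07 (95% interval -0.37 to -0.05, limma, unadjusted p = 0.0151), a level 1.16-fold lower with HDACI. With 1 array left out at a time the unadjusted p stayed between 0.00977 and 0.0463. With the mean of the muscle markers as a covariate it was 0.146 (difference -0.16), and without vehicle replicates 1 and 2, the arrays highest in muscle genes, it was 0.0962 (difference -0.15).

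RT1-Da, the alpha chain partner of RT1-Db1, lay in the same direction but overlapped between groups. It read 11.95, 11.92, 12.19 and 12.11 with HDACI, and 12.36, 12.11, 12.30 and 12.01 with vehicle (difference -0.15 ± 0.09, limma, unadjusted p = 0.132). The chains of the second classical class II molecule lay on the other side of 0, with 0.06 ± 0.07 for RT1-Ba and 0.20 ± 0.18 for RT1-Bb. RT1-Bb was also among the more variable members, from 11.06 to 11.85 with HDACI and from 10.98 to 11.70 with vehicle.

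The nonclassical class II molecules edit the peptides in the endosome. RT1-DMa and RT1-DMb, which form the molecule that exchanges the invariant chain remnant for a peptide, differed by 0.15 ± 0.10 and -0.08 ± 0.09. RT1-DOb, a chain of the inhibitor of DM, read 9.05, 9.13, 9.25 and 8.66 with HDACI and 8.75, 8.88, 8.85 and 8.72 with vehicle, so that HDACI replicate 4 lay below and the other HDACI arrays above all vehicle arrays. Its difference was 0.22 ± 0.12 (limma, unadjusted p = 0.0873, and 0.000962 without HDACI replicate 4). Its partner RT1-DOa differed by 0.04 ± 0.07, and RT1-Ha, a further class II alpha chain, by 0.06 ± 0.09.

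Cd74, the invariant chain, was among the least variable members. It lay between 13.44 and 13.64 with HDACI and between 13.50 and 13.58 with vehicle, and the difference was -0.02 ± 0.05 (95% interval -0.14 to 0.10). Ciita, the switch of class II transcription, lay between 8.22 and 8.47 with HDACI and between 8.18 and 8.52 with vehicle, and differed by 0.03 ± 0.09 (95% interval -0.18 to 0.24). CCAAT, the box bound by NF-Y next to the elements that recruit Ciita, was found in the window of each of the 9 genes with a RefSeq promoter among the class II chains and Cd74, against 37.5% of all promoters. The stretch of RT1-Db1 is shown as the class II gene past an unadjusted p of 0.05, on the minus strand of chromosome 20 in GRCr8, with CCAAT and ATTGG in capitals.
RT1-Db1, chr20:4560203-4560252: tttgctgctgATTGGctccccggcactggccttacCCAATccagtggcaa

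**Figure D3:**
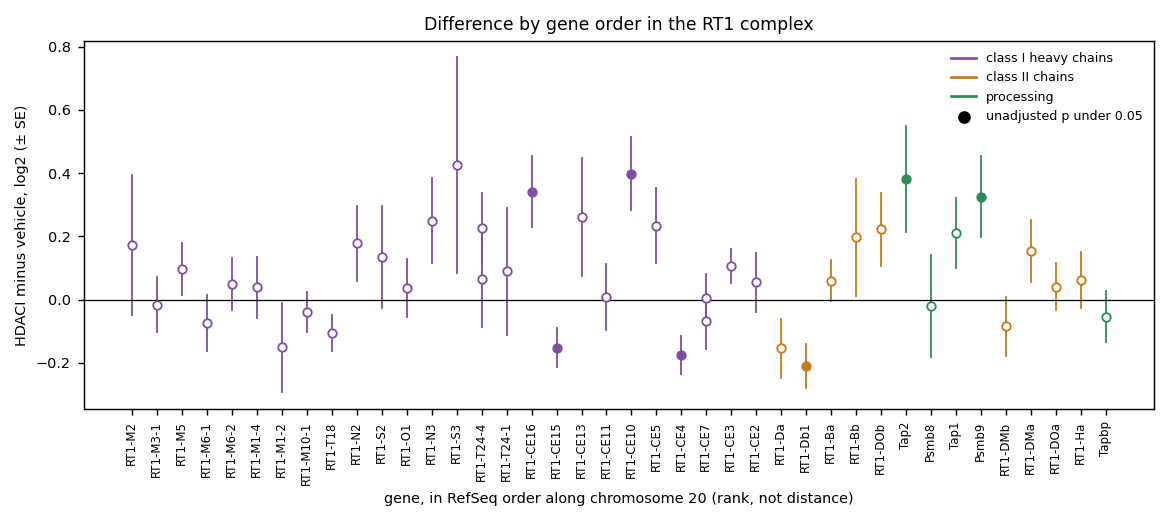
Difference (HDACI minus vehicle, log2, ± SE) of the members on chromosome 20, in RefSeq gene order and not to scale, with filled points for an unadjusted p under 0.05. RT1-CE16 (0.34) and RT1-CE15 (-0.15) are neighbours among the members with opposite signs, and the block from RT1-Da (-0.15) to Psmb9 (0.33) holds both signs as well.

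These genes also differed between arrays of the same group. HDACI replicate 3 gave the highest of the 8 values for 29 of the 50 probe sets (58%), against 16.3% of all probe sets, and the lowest value for none. This held for 14 of 28 class I probe sets, 7 of the 10 class II chains and Cd74, and 8 of 10 processing probe sets. On this array the members lay a median of 0.16 above their own mean over all arrays, whereas over all probe sets that median was 0.01. The gap between replicate 3 and the mean of the other HDACI arrays was 1.44 for RT1-S3, 0.87 for RT1-T24-1, 0.80 for RT1-CE13, 0.63 for RT1-M2, 0.40 for Tap2, 0.35 for Tap1 and for Psmb9, and 0.33 for Tapbp. It was 0.05 for B2m and 0.14 for Cd74. Vehicle replicate 2 had the lowest value for 10 of 28 class I probe sets and 12 of all 50 (11.7% of all probe sets), and vehicle replicate 4 for 6 of 10 processing probe sets and also 12 of all 50 (13.9%).

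**Figure D4:**
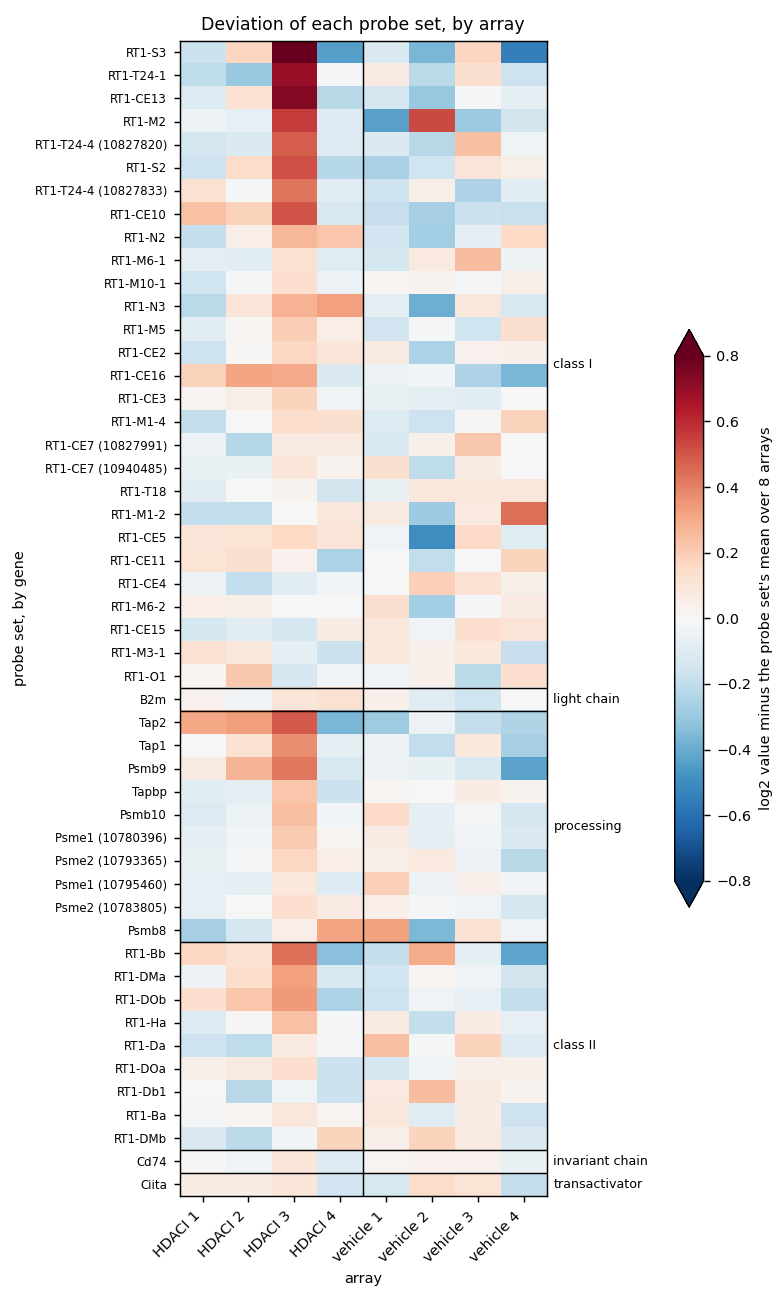
Log2 value of each of the 50 probe sets (rows) on each of the 8 arrays (columns) minus its own mean over the 8, red above and blue below, with colours saturating at 0.8. Within each class the rows are sorted by the gap between HDACI replicate 3 and the other HDACI arrays, and the column of HDACI replicate 3 is the highest in 29 rows.

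Members varied more between replicates than most probe sets did. The median within-group SD of the limma fit was 0.15 for the members and 0.10 for all probe sets, and 40 of the 50 lay above the latter. Without HDACI replicate 3 the median difference of the members was 0.007 in place of 0.06, the processing genes higher at an unadjusted p of 0.05 went from 2 to 0, and RT1-CE10 and RT1-CE16 still passed. HDACI replicate 4 was the lowest array for 8 members (16%, against 19.5% of all probe sets), among them Tap2, Tapbp, RT1-DOb and Cd74. Without it 9 members were higher at that threshold, beside 474 of all 28826 probe sets.

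**Figure D5:**
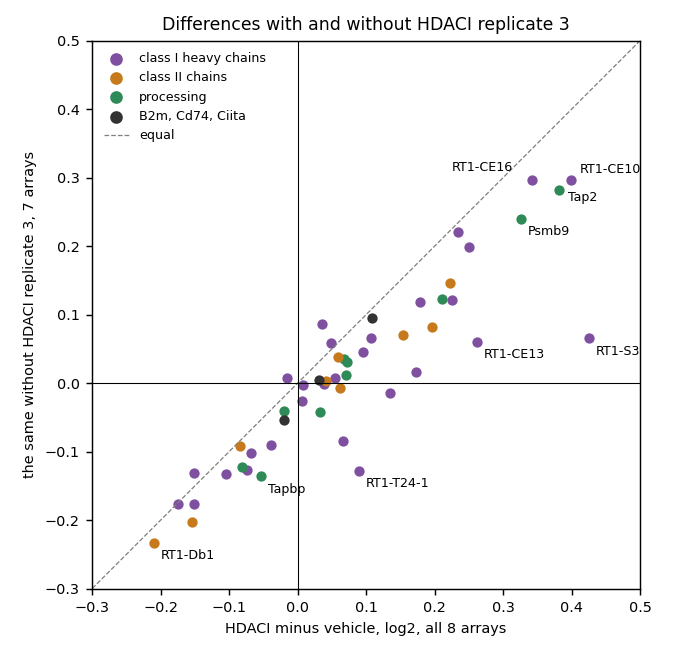
Difference (HDACI minus vehicle, log2) of each of the 50 probe sets with all 8 arrays (horizontal) and without HDACI replicate 3 (vertical), with a dashed line where both are equal. RT1-S3 goes from 0.43 to 0.07 and RT1-CE13 from 0.26 to 0.06, while RT1-CE10 goes from 0.40 to 0.30 and RT1-CE16 from 0.34 to 0.30.

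Marker lists of immune cells were read on the same arrays, since class II genes mark antigen-presenting cells and NK cells survey class I. The mean of 11 of 11 macrophage markers lay between 9.87 and 10.42 with HDACI and between 9.92 and 10.13 with vehicle, and was highest on HDACI replicate 4. T cell markers (9 of 9, means 7.82 to 8.17 with HDACI and 7.81 to 8.17 with vehicle) and dendritic cell markers (6 of 7, means 7.95 to 8.16 and 7.99 to 8.12) were also highest there. The NK cell list (6 of 6) was highest on HDACI replicate 3 at 7.62. It lay at 7.23 to 7.37 on the other HDACI arrays and at 7.30 to 7.43 with vehicle. Of its 6 genes 4 were highest on HDACI replicate 3, while Gzmb and Klrd1 were highest on vehicle replicate 2. HDACI replicate 3 was also the highest array for 3 of 6 dendritic cell, 3 of 9 T cell and 1 of 11 macrophage genes. Over all probe sets this share was 16.3%. No gene of these 4 lists passed an unadjusted p of 0.05 in limma. Their part in the values of the MHC genes was not tested. The mean of the muscle markers was fitted as a covariate for all members, with 3 higher and 2 lower at an unadjusted p of 0.05 in that fit. Over all 28826 probe sets the same fit gave 464 higher and 581 lower (3.63%).

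The wider pathway was described with 6 lists of genes outside the rule. Over all probe sets 3.55% passed an unadjusted p of 0.05. Of the genes that fold and trim class I cargo (Calr, Canx, Pdia3, Erap1, Tapbpl and Lnpep) none of 6 passed an unadjusted p of 0.05, with differences from -0.03 to 0.04. The constitutive proteasome list had 19 probe sets of 16 genes and a median difference of -0.02. Its activator Psme4 was lower by 0.16 ± 0.07 (limma, unadjusted p = 0.0405), at 11.28 to 11.40 with HDACI and 11.31 to 11.60 with vehicle, and no other passed. None of the 8 genes that cut class II peptides or turn class II over (Ctss, Ctsl, Ctsb, Ctsd, Ctsh, Lgmn, Ifi30 and Marchf1) passed, with Ifi30, a lysosomal thiol reductase, at 0.09 ± 0.11. None of 10 factors that bind MHC promoters passed either, with Rela at 0.06 ± 0.04, Nfyb at -0.06 ± 0.05 and Rfx5 at 0.07 ± 0.06.

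In the list of interferon gamma signalling 1 of 14 genes passed an unadjusted p of 0.05, against 3.55% of all probe sets. Gbp2, an interferon-induced GTPase, read 11.56, 11.57, 11.46 and 11.52 with HDACI and 11.36, 11.23, 11.24 and 11.43 with vehicle. HDACI lay wholly above vehicle, as in 1.01% of all probe sets, and HDACI replicate 3 was the lowest of its group here (difference 0.21 ± 0.06, limma, unadjusted p = 0.00565, adjusted p = 0.9998). Irf1, which binds the interferon element of class I promoters, differed by 0.13 ± 0.09, Ifngr2 by 0.06 ± 0.05 and Ifng itself by -0.05 ± 0.11. The mean of the list was highest on HDACI replicate 3 at 9.97, against 9.77 to 9.94 on the other HDACI arrays and 9.82 to 9.86 with vehicle. HDACI replicate 3 was the highest array for 4 of the 14 genes, against 16.3% of all probe sets.

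Class I-like genes outside the MHC use B2m or the class I fold for other cargo. Of 6, Cd1d1, which shows lipids to NKT cells, was higher by 0.16 ± 0.06 (limma, unadjusted p = 0.0172). Its values were 8.46, 8.48, 8.63 and 8.57 with HDACI and 8.37, 8.31, 8.46 and 8.35 with vehicle, with HDACI replicate 1 and vehicle replicate 3 at the same level to 2 decimals. Fcgrt, the Fc receptor that recycles IgG, was higher by 0.16 ± 0.06 (limma, unadjusted p = 0.0319), from 9.54 to 9.70 with HDACI and from 9.29 to 9.55 with vehicle. Mr1, Hfe, Azgp1 and Procr did not pass, with differences from -0.11 to 0.05. Thus 2 of 6 passed, against 3.55% of all probe sets.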

How the data were processed

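RNA of injured L5 DRG was measured on 8 Affymetrix Rat Gene 1.0 ST arrays, 4 HDACI and 4 vehicle, grouped by the sample labels. The values deposited by the authors are on a log2 scale after RMA in oligo (version not given in the sources used here), which hides a change shared by all transcripts and shrinks differences of dim probe sets. Arrays have no read depth, and their number limits the precision. Gene names came from the platform annotation, and all 46 gene identifiers were current in RefSeq (GRCr8).

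HDACI minus vehicle was fitted in limma 3.58.1 (R 4.3.3; lmFit, eBayes, two-sided), without filter, block or covariate, with Benjamini-Hochberg adjustment over 28826 probe sets. The script was tested on simulated data. Members were named mainly if past an unadjusted p of 0.05, outside the RT1 class I genes, or extreme in difference. The 6 class I genes with the highest mean were named as well. Outside the members, up to 3 genes per pathway list were named by p. Ifng and the NK cell genes whose highest value was not on HDACI replicate 3 were named besides. Members and lists were chosen with earlier results of these data known. RefSeq promoters were found for 41 of 46 genes, without RT1-CE7, RT1-M1-4, RT1-M2, RT1-DMb and Ciita. A planned comparison of RT1 protein sequences was not run. Alternatives were a replicate block, other normalizations, variance models and filters, array weights, a muscle covariate and leaving out arrays.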

Additional observations from a re-analysis of the deposited data

Results flagged for a closer look

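The values below stood far from the other 3 of their group, by Dixon's criterion on the gap to the nearest value over the range. This happened in 10 of 136 groups tested (7.35%), against 5.75% of the groups of all probe sets, and chance flags about 1 group in 20. Of the 10, 4 were on HDACI replicate 3, all class I heavy chains and all at the high end. They were RT1-CE5 at 8.506, RT1-M2 at 9.9989, RT1-M6-1 at 6.3771 and the first RT1-T24-4 probe set at 8.9672. On HDACI replicate 4, Ciita was low at 8.2212 and Psme4 high at 11.405. RT1-CE2 was low on vehicle replicate 2 at 7.8507, RT1-T18 low on vehicle replicate 1 at 7.2058 and RT1-M3-1 low on vehicle replicate 4 at 8.3529. Azgp1, a class I-like gene outside the MHC, was high on vehicle replicate 3 at 6.5295, within 0.05 of the others.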

How the results depend on the processing

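None of the 68 member and pathway probe sets followed here passed an adjusted p of 0.05 in limma under any alternative, and the lowest adjusted p was 0.566 (Tap2 without HDACI replicate 4). Of the 68, 48 kept their direction throughout, among them all 7 past an unadjusted p of 0.05. The same-numbered arrays of the groups correlated at -0.04, 0.01, 0.01 and -0.28 in their deviations from the group means. The labels do not say whether the numbers mark shared days or batches, and these values do not settle it. With the replicate block 6 members were higher and 1 lower at an unadjusted p of 0.05, with 0 lower class I and 1 higher class II probe sets. Over all 28826 probe sets that fit gave 337 higher and 466 lower (2.79%). Arrays give no depth, and dim probe sets were not treated apart except in the filter, which turned no direction.

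At an unadjusted p of 0.05 the processing genes that were higher went from 2 to 1 with a second quantile normalization, with the muscle covariate and without vehicle replicates 1 and 2, and the lower class II genes went from 1 to 0 in the latter pair. In these fits 3.86%, 3.63% and 4.8% of all probe sets passed, in that order. Array weights gave 1 higher and 2 lower class II genes, in a fit where 7.09% of all probe sets passed in place of 3.55%. Members with HDACI wholly above vehicle went from 1 to 2 with a second quantile normalization or cyclic loess, and to 5 without vehicle replicates 1 and 2, where 4 lay wholly below. Groups of fewer arrays separate more readily. The share of all probe sets without overlap was counted only on the deposited values of all arrays. The counts after another normalization or from fewer arrays thus cannot be read as stronger separation. With 1 array left out, ranges were 2 to 9 members higher, 1 to 3 lower, 1 to 7 wholly above and 2 to 4 wholly below. Over all 28826 probe sets these fits gave 321 to 721 higher and 387 to 1037 lower (2.46% to 6.1% in either direction). In the same fits 2 to 4 class I, 0 to 2 class II and 0 to 3 processing probe sets were higher, and 0 to 2, 1 to 2 and 0 to 1 were lower. The extremes came without HDACI replicate 4 for the counts of 9 and 7, and without HDACI replicate 3 for the 4 wholly below and the lower processing gene, Tapbp.

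Among the probe sets whose direction turned, RT1-S2 had the largest difference in the fit of all arrays (0.14). Under median centring RT1-CE7 (the brighter probe set) was at -0.00012, and under cyclic loess RT1-CE11 at -0.0022. With array weights RT1-M3-1 was at 0.016, RT1-T24-1 at -0.037, RT1-T24-4 (the first probe set here and below) at -0.0084 and Ciita at -0.0059. Without vehicle replicates 1 and 2, RT1-CE11 was at -0.086, RT1-CE2 at -0.012, RT1-CE7 at -0.031, RT1-M1-4 at -0.078, RT1-M3-1 at 0.040, RT1-M6-2 at -0.00021, RT1-S2 at -0.0082, RT1-T24-4 at -0.070 and RT1-DOa at -0.021. With the muscle covariate RT1-CE11 was at -0.012, RT1-CE7 at -0.022, RT1-M1-4 at -0.061, RT1-M3-1 at 0.0077, RT1-S2 at -0.016, RT1-T24-4 at -0.13, RT1-DOa at -0.018 and Ciita at -0.017. With 1 array left out the differences ran from -0.057 to 0.094 for RT1-CE11, -0.091 to 0.0072 for RT1-M10-1, -0.029 to 0.086 for RT1-O1, -0.062 to 0.049 for RT1-CE7, -0.0091 to 0.109 for RT1-M1-4, -0.080 to 0.038 for RT1-M3-1, -0.015 to 0.233 for RT1-S2, -0.128 to 0.206 for RT1-T24-1, -0.085 to 0.157 for RT1-T24-4, -0.020 to 0.118 for RT1-CE2 and -0.034 to 0.098 for RT1-M6-2. They ran from -0.143 to 0.084 for Psmb8, -0.042 to 0.089 for Psmb10, -0.0065 to 0.109 for RT1-Ha, -0.054 to 0.014 for Cd74, -0.028 to 0.086 for Ciita, -0.016 to 0.144 for Ifi30, -0.049 to 0.106 for Lgmn and -0.050 to 0.090 for Ctsl. The cause of these shifts was not tested.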
